A study of Homo sapiens with 4 samples.

Results

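The regions described here are the 53BP1 regions of MCF10A cells that lay outside every region of RNA polymerase II phosphorylated on serine 5 (Pol II S5p). They were chosen by position: a region of the 53BP1 list on chromosomes 1 to 22 was taken if it shared 0 bp with any region of the S5p list, whether or not it met a region of Pol II phosphorylated on serine 2 (S2p). This left 273 of the 11370 53BP1 regions on these chromosomes (2.40%), and the other 11097 met S5p. The positions in the 53BP1 and S5p lists fixed the choice, so a distance above 0 bp to S5p is given as a description.

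All samples were MCF10A, an established non-tumour human breast epithelial line, grown under normal conditions with no treatment or genetic change named. Chromatin immunoprecipitation with sequencing (ChIP-seq) was done for 53BP1, S5p and S2p on formaldehyde-fixed, sonicated chromatin. Each ChIP had 1 library, so no value has a spread between replicates and no difference was tested. The input sample was not analysed here. The intervals given are 95% intervals from exact binomial methods. They allow for counting error only, and treat regions as independent, which neighbours are not.

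53BP1 is a chromatin reader that binds modified histones around DNA double-strand breaks and steers their repair toward end joining; it was first found as a partner of p53. Serine 5 of the Pol II tail is phosphorylated near transcription starts, where the enzyme initiates and pauses, and serine 2 as it elongates through the gene body. By its title, the study concerns 53BP1 in transcription by the p53 family. The regions outside S5p are those where 53BP1 was called without a called sign of initiating Pol II. An S5p signal too weak to be called would not appear in the lists, so absence of a region is not absence of S5p.

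The 273 regions were narrow and weak for the 53BP1 list. Their width ran from 213 to 781 bp with a median of 281 bp (268 to 288), against 571 bp for the 53BP1 regions on S5p (565 to 579). In 164 of them the width was under 300 bp (60.1%, 54.0 to 65.9), against 13.8% of all 53BP1 regions. Only 7 were wider than the median of the whole list, a size that 49.9% of all 53BP1 regions exceeded. A wide region has more bases that can touch S5p, so width is not free of the rule.

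The authors' fold enrichment, the signal of a region over its background, ran from 2.48 to 14.7 in these regions. Its median was 4.10 (3.93 to 4.15), against 6.04 (6.04 to 6.14) on S5p. A fold above the median of all 53BP1 regions was found in 35 of the 273 (12.8%), against 49.1% of the whole list. A −log10 q-value of 5 or more was reached by 68 (24.9%, 19.9 to 30.5), against 72.1%. Folds are the authors' values and rank regions within the 53BP1 list only. Ties were common, as in the whole list: 253 of the 273 (92.7%) had exactly the fold and p-value of another 53BP1 region, against 88.3%. The commonest pair of values was a fold of 3.78 with a −log10 p-value of 5.03. It belonged to 22 of the 273 and to 106 53BP1 regions in all, and fold does not order regions that share a value.

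Seen from the whole 53BP1 list, the share outside S5p was highest among its weakest regions. In the quintile of lowest fold, 165 of 2279 regions lay outside S5p (7.24%, 6.21 to 8.38). The next quintiles held 63 (2.75%), 20 (0.876%) and 17 (0.758%), and the strongest held 8 of 2274 (0.352%, 0.152 to 0.692). Fold rose with width, with a Spearman's rho of 0.613 on S5p and 0.444 in the 273. Since width is not free of the rule, the gradient with fold is not separate from it. By width the gradient was steeper, from 207 of 2283 in the narrowest quintile (9.07%, 7.92 to 10.3) to 53 (2.34%), 11 (0.484%) and 2 (0.0878%). Among the 2275 widest 53BP1 regions none lay outside S5p, and a count of 0 allows a share of up to 0.132% by the limit of 3 counts, or 0.162% by the exact interval that the plot by quintile shows.

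**Figure D1:**
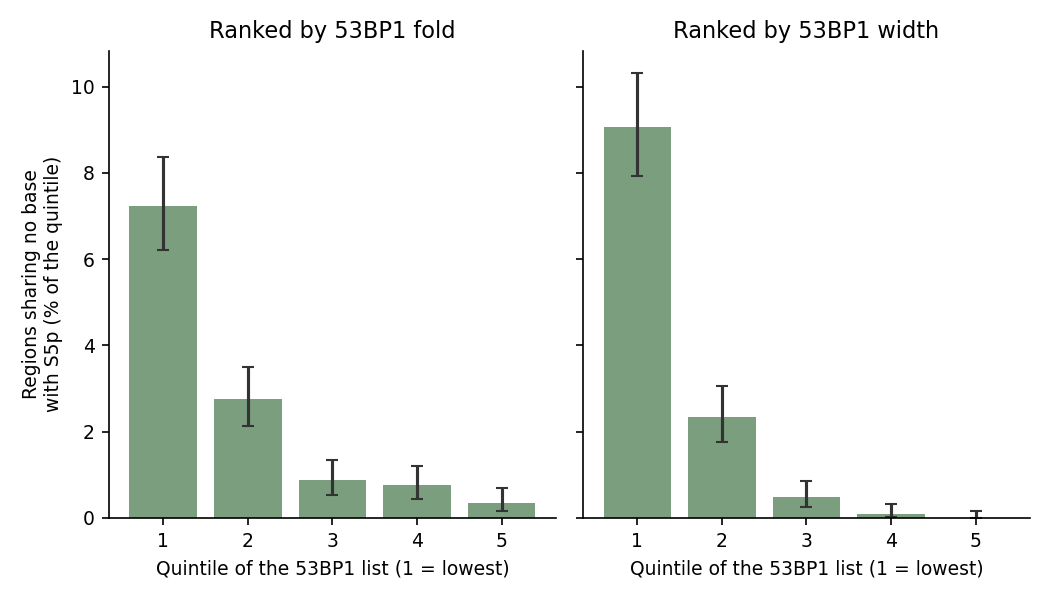
Share of 53BP1 regions on chromosomes 1 to 22 that share no base with an S5p region, in percent, by quintile of the 53BP1 list ranked by fold (left) and by width (right). Bars give the share and whiskers its exact 95% binomial interval; the share falls from 7.24% to 0.352% with fold and from 9.07% to 0% with width.

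The 10 strongest regions outside S5p lay 0.241 to 285.7 kb from it. Of all 273, 38.1% lay within 5 kb of S5p. The strongest was chr12:96883022-96883534 (hg19), 513 bp wide with a fold of 14.7, which placed it 449th of the 11370 53BP1 regions. Its nearest S5p region was 11.0 kb away and its nearest S2p region 87.8 kb away. The next, chr11:45921197-45921688 (fold 14.0), lay 1.92 kb from an S2p region of 14802 bp and 5.25 kb from an S5p region of 13730 bp. Both of those Pol II regions were among the strong ones of their lists, at the 99.2 and 92.0 percentile by fold.

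On chromosome 22, 2 of the strongest 10 were found. The region chr22:23483949-23484431 (fold 12.4) was 3.12 kb from a 490 bp S5p region, and that S5p region itself held a 53BP1 region. The region chr22:21399795-21400416 (fold 11.3), 622 bp wide, was 41.9 kb from S5p and 30.9 kb from any other 53BP1 region. It was the only one of the 10 that was also among the 5 widest of the 273.

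Of the remaining 6, 3 had S5p within about a kilobase. The region chr16:58528985-58529386 (fold 10.7) lay 1.18 kb from S5p, chr19:4759676-4760120 (fold 9.44) lay 0.241 kb away and chr2:129076228-129076599 (fold 9.11) lay 0.514 kb away. By fold, these S5p neighbours stood at the 85.3, 57.3 and 3.75 percentile of the S5p list, in the same order. The others were chr1:43613254-43613741 (fold 11.6), 4.27 kb from S5p, chr1:151682666-151683226 (fold 8.64), 5.94 kb away, and chr3:167097870-167098241 (fold 8.66). The chromosome 3 region stood alone, with 285.7 kb to S5p, 280.9 kb to S2p and 354.1 kb to the nearest 53BP1 region. None of the 10 met an S2p region; among all 273, 12.8% did.

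The distance to S5p spanned 6 orders of magnitude, from 3 bp to 5821186 bp between facing edges, with a median of 11035 bp (7923 to 17162). Within 1 kb of S5p lay 60 regions (21.98%, 17.2 to 27.4), 24 of them within 200 bp. A further 44 lay 1 to 5 kb away, 55 lay 5 to 20 kb away, 66 lay 20 to 100 kb away and 48 (17.6%) lay beyond 100 kb. Fold hardly varied with this distance: the medians of these bands, from near to far, were 4.39, 4.01, 4.10, 4.27, 4.03 and 3.78. Over the 273 regions Spearman's rho between fold and distance was -0.07, a description over regions of 1 library. Median width by band lay between 261 and 298.5 bp. Measured between summits, the median distance to S5p was 14989 bp, against 80 bp for the 53BP1 regions on S5p.

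**Figure D2:**
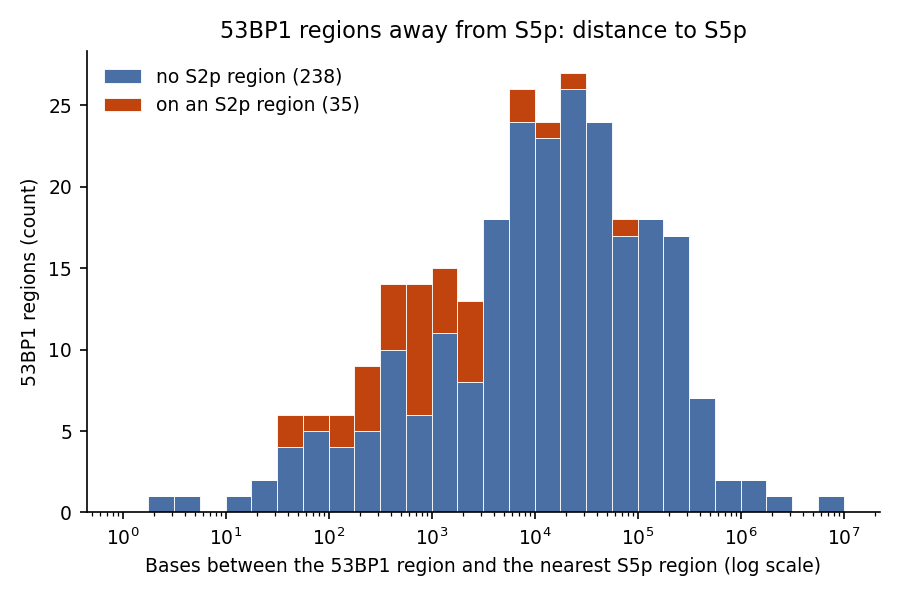
Number of 53BP1 regions outside S5p (vertical axis) by the number of bases to the nearest S5p region (horizontal axis, log scale). Orange marks the 35 regions that met an S2p region and blue the 238 that did not; the median over all 273 is 11035 bp, and orange lies mostly at short distances.

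At the boundary of the rule, regions just outside and just inside S5p overlapped in fold. The 5 nearest without touching were chr22:50699784-50700135 (3 bp away), chr16:84682107-84682458 (4 bp), chr9:112260475-112260707 (16 bp), chr17:6459803-6460168 (25 bp) and chr20:18036980-18037305 (26 bp). Their folds ran from 3.15 to 4.25. The 5 regions on S5p that shared the fewest bases with it shared 9 to 16 bp. They were chr15:85291547-85292184 (9 bp, fold 5.39), chr1:3370470-3370734 (10 bp, fold 4.15), chr16:447079-447297 (12 bp, fold 4.15), chr9:138371237-138371496 (13 bp, fold 3.40) and chr19:46268015-46268241 (16 bp, fold 3.47). Limiting S5p to regions with a −log10 q-value of 5 or more moved only 32 further 53BP1 regions outside it. Those 32 had a median fold of 4.06, and 17 of them met S2p.

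Folds of the 10 regions farthest from S5p lay on both sides of the median of all 273, 4.10. Their nearest other 53BP1 region was 403.4 kb or more away. That is partly by construction, since nearly every other 53BP1 region lies on S5p. The farthest, chr21:9530767-9531003 (fold 3.89), was 5821 kb from S5p, 5913 kb from S2p and 6906 kb from any other 53BP1 region. Distances count every base of the build, and stretches where no region could be called were not excluded. Next came chr4:28833993-28834219 (fold 4.15) at 1884 kb, chr4:132671258-132671477 (fold 3.68) at 1271 kb and chr11:91662456-91662678 (fold 4.05) at 1071 kb. These were the only 4 beyond 1 Mb. The other 6 of the farthest 10 lay 373.0 to 632.1 kb from S5p, 3 of them on chromosome 8 and 1 each on chromosomes 1, 5 and 7. All 10 had folds of 3.15 to 4.41 and widths of 220.0 to 326 bp. Among them chr5:92919948-92920273 (fold 4.15) differed in lying 2.55 kb from an S2p region of 390.0 bp, at the 8.50 percentile of the S2p list, while S5p was 421.0 kb away.

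S5p regions nearest to these 53BP1 regions covered the whole range of the S5p list. Their median fold was 5.60 and their median percentile 71.5 (68.1 to 77.2), against 92.9 (92.8 to 93.1) for the S5p regions under the other 53BP1 regions. The strongest quintile of S5p supplied 103 of the 273 neighbours and the weakest 29. The neighbour held a 53BP1 region of its own in 84 cases (30.8%), as did 15.2% of all S5p regions, and met S2p in 138 (50.5%), as did 60.2% of all S5p regions. Neighbours were not matched to the whole S5p list for fold or width, so these shares are not like for like. Among 53BP1 regions on S5p, 53BP1 fold followed the percentile of the S5p region with a rho of 0.418 (11097 regions). For the 273 and their nearest, not overlapping, S5p region the rho was 0.04. Both are descriptions over regions, and the second pairs regions at distances from 3 bp upward.

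S2p, which the rule did not use, met 35 of the 273 regions (12.8%, 9.09 to 17.4), against 78.9% of all 53BP1 regions and 80.6% (79.8 to 81.3) of the 53BP1 regions on S5p. The lists of S5p and S2p overlap, with 37671 of 62532 S5p regions meeting S2p, so a low share is partly given by the absence of S5p. An S2p region was met or lay within 1 kb in 56 (20.5%), against 81.9% of all 53BP1 regions. Of the 238 regions on neither form of Pol II, 192 were 1 kb or more from both. S5p was the nearer form in 163 of these 238 and S2p in 75. The S5p list is also the longer, with 62532 regions against 54601 for S2p. Other positions were not counted, so these counts cannot be read as particular to the 238. No S5p or S2p region lay within 100 kb of 42 (15.4%, 11.3 to 20.2), against 0.369% of the whole list, all of which belong to the 273 by the rule.

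The share that met S2p was also compared along the 53BP1 list. On S5p it went from 70.5% in the quintile of lowest 53BP1 fold to 94.1% in the highest. Outside S5p, 34 of the 228 regions in the lowest pair of quintiles met S2p (14.9%, 10.6 to 20.2), but only 1 of the 45 in the upper 3 quintiles (2.22%, 0.0562 to 11.8). By single quintile, from the lowest fold, the counts were 24 of 165, 10 of 63, 0 of 20, 1 of 17 and 0 of 8. The pooling falls where these counts drop. The intervals of the pooled shares overlap, and the difference was not tested. Among the 45 stronger regions, the medians were 372 bp for width, 12158 bp for the distance to S5p and 24822 bp for that to S2p. For the 228 weaker ones these were 266 bp, 10943 bp and 25293.5 bp. With a −log10 q-value of 5 or more in 53BP1, 3 of 68 met S2p (4.41%, 0.919 to 12.4).

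**Figure D3:**
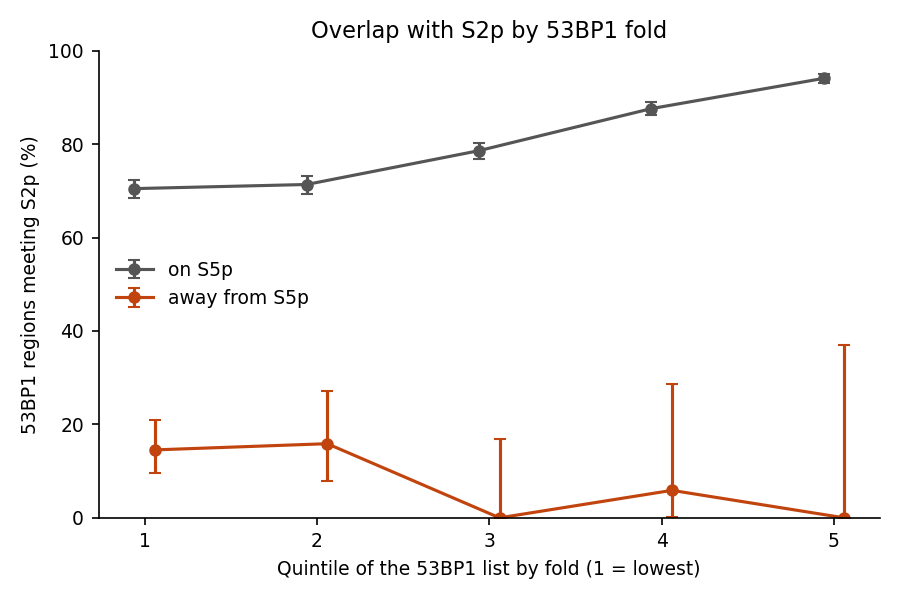
Percentage of 53BP1 regions that meet an S2p region (vertical axis) by quintile of the 53BP1 list ranked by fold (horizontal axis), for regions on S5p (grey) and outside it (orange). Points give the share and whiskers its exact 95% binomial interval; grey rises from 70.5% to 94.1%, while orange stays below 16% with wide intervals in the upper 3 quintiles, which hold 45 regions.

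The 35 regions on S2p lay mostly inside long, strong S2p regions close to S5p. They fell in 34 S2p regions of 556 to 55727 bp (median 11170 bp, against 1098 bp for the whole S2p list), and 31 were wholly inside. In 29 cases the S2p region was of the strongest quintile of its list, in 30 it met S5p elsewhere along its length, and in 19 it held another 53BP1 region. A long S2p region has more bases for a 53BP1 region to fall on, so these counts go with length. With S2p regions of 5 kb or more, 24 of 25 met S5p, as did 93.2% of all S2p regions of that width. Of the 25, 18 held another 53BP1 region, while 26.2% of all S2p regions of that width held any. The 25 already met 1 by choice, and a limit of 5 kb does not match lengths, so these last shares are not like for like. S5p was within 1 kb of 21 of the 35 (60.0%), against 39 of the 238 off S2p (16.4%). Their median distance to S5p was 891 bp (368 to 1411), against 16428 bp (11035 to 23229) off S2p. The median 53BP1 fold was 3.95 (3.72 to 4.15) on S2p and 4.12 (3.94 to 4.20) off it, with overlapping intervals. The 53BP1 summit lay a median of 3069 bp from the S2p summit.

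The strongest of these 35 was chr19:55690619-55690906 (fold 6.93), inside an S2p region of 1617 bp and 0.176 kb from S5p. It was followed by chr17:6945328-6945695 (fold 5.29), inside an S2p region of 5836 bp with S5p 3.11 kb away. The widest of all 273 regions, chr10:99466632-99467412 (781 bp, fold 5.25), shared 668 bp with the end of an S2p region of 19219 bp. That position was 1.11 kb from an S5p region of 16669 bp, at the 99.2 percentile of its list, which held 6 53BP1 regions. Such flanking positions recurred: chr2:1752126-1752770 (fold 4.53, 0.368 kb from S5p), chr11:57417312-57417893 (fold 4.41, 0.873 kb) and chr17:7248851-7249284 (fold 4.53, 0.353 kb) each lay beside an S5p region holding 3 53BP1 regions. The other 4 of the 10 with the largest fold on S2p were on chromosomes 2 (2 regions, not neighbours), 11 and 14. They had folds of 4.53 to 4.90 and lay 0.033 to 1.16 kb from S5p. Their nearest S5p regions held 0 to 2 53BP1 regions, and those nearest to chr19:55690619-55690906 and chr17:6945328-6945695 held 0. The fifth widest region, chr8:8750861-8751439 (579 bp, fold 5.29), met no S2p and was 0.233 kb from S5p.

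Other 53BP1 regions were farther away than is usual in the list. The median distance to the nearest one was 59985 bp (47005 to 77072), against 26797 bp (25558 to 28162) for the regions on S5p. No other 53BP1 region lay within 100 kb of 105 of the 273 (38.5%, 32.7 to 44.5), against 21.2% of all 53BP1 regions. In 25 cases the region was the only 53BP1 region of its 1 Mb window (9.16%, 6.01 to 13.2), against 3.34%. In the quintile of lowest 53BP1 fold the median was 64596 bp outside S5p and 11873.5 bp on it, the largest contrast by ratio. The next quintiles had 38907 against 24033 bp, 96369.5 against 32871.5 bp and 61772 against 37716 bp. In the strongest, with 8 regions outside S5p, the medians were close, 27381.5 bp outside and 28292 bp on it. Distance to S5p and to 53BP1 moved together (rho 0.574 over the 273), which is partly by construction, since nearly every other 53BP1 region lies on S5p. Being on S2p went with a near neighbour: the median distance to 53BP1 was 4390.0 bp on S2p and 76453.5 bp off it.

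**Figure D4:**
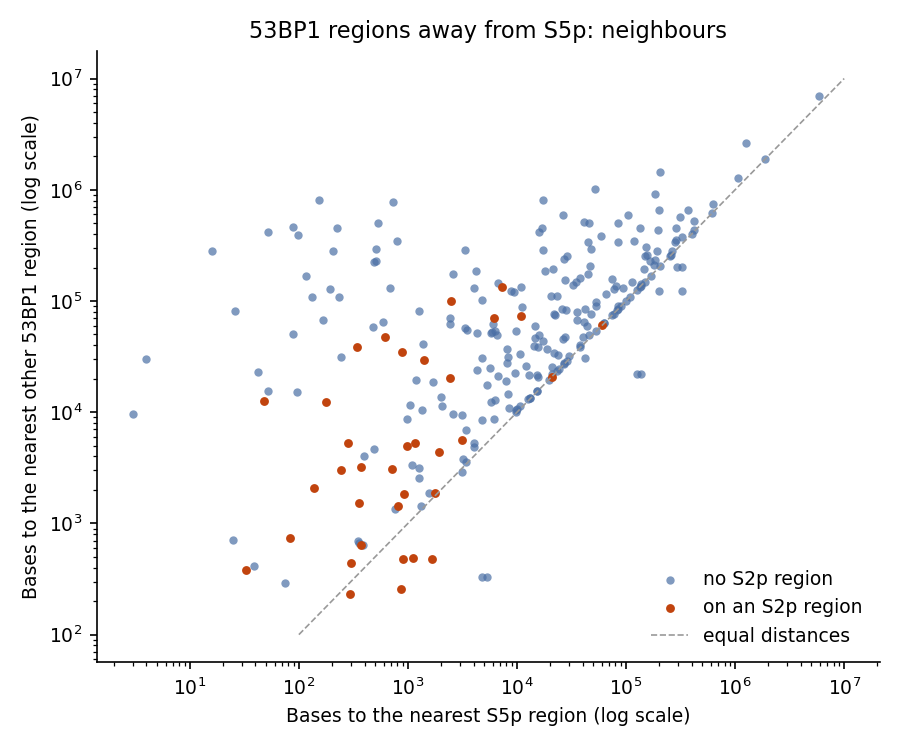
Bases from each of the 273 regions to the nearest S5p region (horizontal, log scale) and to the nearest other 53BP1 region (vertical, log scale), with a dashed line where both are equal. Orange points are on an S2p region and lie mostly at the lower left; the medians of all points are 11035 bp and 59985 bp.

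A small set sat directly beside another 53BP1 region. In 17 of the 273 (6.23%, 3.67 to 9.78) the gap was under 1 kb, from 234 to 734 bp, against 14.0% of all 53BP1 regions. Of the 17, 9 met S2p and 4 formed pairs in which each was the neighbour of the other. The neighbours of the other 13 were on S5p, as the rule fixes for any 53BP1 region outside the 273. In 11 of these 13 it was the S5p region nearest to the described region. Among the 13 the neighbour had the higher fold in 7, with median folds of 6.04 for neighbours and 4.36 for the regions themselves.

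Most of the 273 regions stood apart from each other. No set of the same size from the 53BP1 list was counted, so this sparseness cannot be read as particular to them. They occupied 252 of the 2003 windows of 1 Mb that held 53BP1, with a single one in 235 windows. Joined over gaps of up to 100 kb they formed 262 singles, 4 pairs and 1 group of 3. The group was on chromosome 19: chr19:55650620-55650901 (fold 3.78), chr19:55677840-55678351 (fold 8.31) and chr19:55690619-55690906 (fold 6.93). Their distances to S5p were 6.71, 5.72 and 0.176 kb, and only the last met S2p. The same 1 Mb window held a further region, chr19:55977536-55977957 (fold 3.72), named after its values were seen, which made it the window with the most, 4 of its 19 53BP1 regions.

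By chromosome, the share of 53BP1 regions outside S5p ran from 1.29% on chromosome 10 (6 of 464) to 5.41% on chromosome 13 (10 of 185, interval 2.62 to 9.72). Chromosome 1 contributed most, 48 of 1340 (3.58%, 2.65 to 4.72), against 225 of 10030 on the other autosomes (2.24%, 1.96 to 2.55). It held 17.6% of the 273 and 11.8% of all 53BP1 regions. Chromosomes 20 (11 of 312, 3.53%), 21 (4 of 118, 3.39%) and 8 (15 of 443, 3.39%) followed. Only the intervals of chromosomes 1 and 13 had a lower bound above the share over all, 2.40%, among 22 chromosomes compared without a test. Limited to a −log10 q-value of 5 or more, the share outside S5p was 68 of 8197 over all 22 (0.830%, 0.645 to 1.05). At that limit chromosome 1, with 8 of 984 (0.813%), was no longer above the overall share, and chromosome 13 had 2 of 139 (1.44%).

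Chromosome 1 was divided by its longest stretch without a region of any list, 24.1 Mb from 121261655 to 145396740. After it, on the long arm, 29 of 644 53BP1 regions lay outside S5p (4.50%, 3.04 to 6.40). Before it the share was 19 of 696 (2.73%, 1.65 to 4.23), so the intervals overlapped. The median fold was 3.69 after the stretch and 4.10 before it. Fold alone does not give the strength of a call. At a fold of 4.91, chr1:109792145-109792453, before the stretch, had a −log10 p-value of 7.63. With the same rounded fold, chr1:234659291-234659556, after it, had 11.9. The medians are therefore not read as weaker calls on the long arm. On the long arm, 27 of the 29 were 1 kb or more from S5p, and on the other side 16 of 19. Divided in the same way, other chromosomes had parts with shares as high. These were chromosome 8 before its stretch (9 of 155, 5.81%, 2.69 to 10.7), chromosome 20 before (6 of 103, 5.83%, 2.17 to 12.2), chromosome 17 before (10 of 220, 4.55%, 2.201 to 8.20) and both parts of chromosome 13 (5.61% and 5.13%). On chromosome 21 the part before its stretch held 1 of 6. Of all these parts, only the long arm of chromosome 1 and the first part of chromosome 8 had a lower bound above 2.40%.

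**Figure D5:**
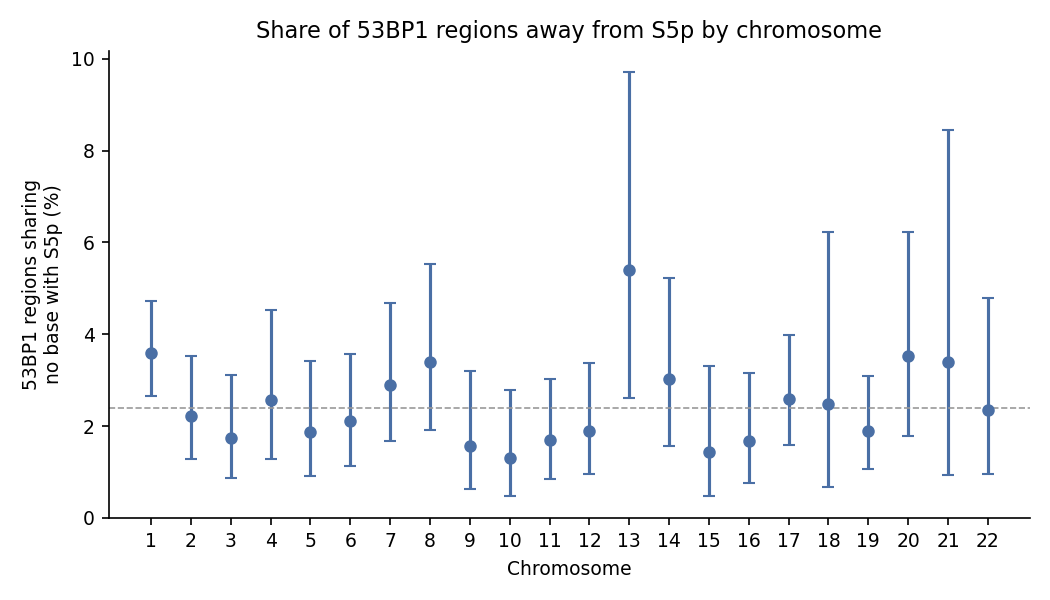
Percentage of 53BP1 regions that share no base with S5p (vertical axis) on each of chromosomes 1 to 22 (horizontal axis). Points give the share, whiskers its exact 95% binomial interval, and the dashed line the share over all 22, 2.40%; the intervals of chromosomes 1 and 13 lie wholly above the line.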

How the data were processed

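The deposited files were lists of enriched regions, 1 per ChIP, holding 11605, 62532 and 54601 rows for 53BP1, S5p and S2p. Build hg19 and bcl2fastq 2.20.0.422 are named in the submitters' processing notes; for the aligner and the peak caller, with its options and control, names and versions are not stated in the labels or file headers. Each row has, as deposited by the authors, a fold enrichment (a ratio over background), a −log10 p-value, a −log10 q-value, a score equal to 10 times the −log10 q-value within 1, and a summit offset. The −log10 q-values of 53BP1 began at 1.32 after rounding. Read depth is unknown, so folds rank regions only within a list.

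Rows on chromosomes 1 to 22 were used for 53BP1, which left out 235. Overlap meant 1 bp or more, and a distance was the number of bases between facing edges. Percentiles were taken within each full list. Positions are 1-based. Shares have Clopper-Pearson intervals and medians have order-statistic intervals, both exact at 95%. Limits for a count of 0 rest on 3 counts. The overlap routine was tested on simulated data. The regions and summaries were chosen with earlier results of these data known. Regions were named by largest fold (10, and 10 on S2p), largest width (5), largest distance to S5p (10), smallest distance (5), least overlap (5) and groups of 3 or more with gaps of up to 100 kb. No hg19 sequence or annotation was used here, so no gene is named, no sequence is shown, and the planned gene lists, cell type markers, distances to starts and motifs were not run. Software was scipy 1.17.1, pandas 2.3.3, numpy 2.4.6 and matplotlib 3.10.9 under Python 3.11.15.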

Additional observations from a re-analysis of the deposited data

How the results depend on the processing

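Of 50 alternative values of 8 results, 37 stayed within the interval of the value reported, or within 1.5 times the count. With 53BP1 limited to a −log10 q-value of 5 or more, 68 regions were left, 4.41% met S2p, the median fold was 6.30, the median width 336 bp and the median percentile of the nearest S5p region 78.9. With S5p limited in that way, the percentile was 77.4. With the 53BP1 summit outside S5p, or at least 50% of the region outside, the median distance to S5p was 4735 or 4787 bp, and 37.9% or 37.2% lay within 1 kb, since regions touching S5p were then included. With no S5p within 1 kb, 6.57% met S2p and the median distance was 22504 bp. Within 5 kb of S5p lay 38.1%. Adding chromosome X gave 283 regions and moved no result out of its interval. The alternatives for the nearest other 53BP1 region and for the percentile of the nearest S5p region were added after seeing the data. Alternatives for distance to a transcription start and for sequence were not run. No paired analysis was possible because the series has a single library for every ChIP. Since depth is unknown, a missing S5p or S2p region means only that none was called.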
